A study of Mus musculus with 24 samples.

Results

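The alpha-globin locus was described here from deposited ChIP-seq peak lists of mouse TgSpi1 erythroleukaemic cells (number 763, bone marrow origin), a line that carries a Spi1 transgene and overexpresses the transcription factor SPI1 (PU.1). The group with doxycycline had 48 h of the drug, which induces a short hairpin RNA against Spi1, and the group without it carried the same transgene and the same inducible hairpin but had no drug. Both groups came from this 1 line and grew in erythropoietin. The members were 8 genes of chromosome 11, Rhbdf1, Mpg, Nprl3, Hba-x, Hba-a1, Hbq1b, Hba-a2 and Hbq1a, of 21887 protein-coding genes in all. Their peaks were taken as all those that touch the stretch from 5 kb before Rhbdf1 to 5 kb after Hbq1a (mm10, chr11:32204585-32305873, 101289 bp). This gave 16 of 23341 H3K27ac peaks with doxycycline and 12 of 28902 without it, and 16 of 101388 H3K4me1 peaks with doxycycline and 20 of 119362 without it. Each H3K27ac list stands for replicates 1 and 2 together and each H3K4me1 list holds 1 replicate, so no value below has a replicate error and no difference was tested. No group had doxycycline without the hairpin, so effects of the drug and of lower SPI1 cannot be told apart. The lists come from bulk cultures, in which more cells with a mark and more of the mark per cell cannot be told apart either.

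The alpha-globin cluster encodes the alpha-like chains of haemoglobin. Hba-x makes the embryonic zeta chain, Hba-a1 and Hba-a2 are the adult alpha genes, and Hbq1b and Hbq1a are theta-like genes. In erythroid cells the cluster is driven from remote enhancers that lie in and beside Nprl3, a neighbouring housekeeping gene, and that mouse studies name by their distance in kb from Hba-x (HS-26, HS-21, HS-12 and HS-8). H3K27ac marks active enhancers and promoters, while H3K4me1 marks enhancers whether active or not.

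The labelled cell type was checked by H3K27ac within 1 kb of the annotated ends of marker genes. All 8 erythroid markers had such a peak with doxycycline and 6 of 8 without it, where Slc4a1 and Alas2 lacked one. Of the 10393 genes with such a peak in either list, 2.04% had it with doxycycline alone. The erythroid markers summed to 54265 bp of H3K27ac over their windows with doxycycline and 40494 bp without it. They did not all differ in that direction. Alas2 had 7215 bp with doxycycline and 1406 bp without it, but Gata1 had 10315 bp and 12012 bp, and Klf1 7349 bp and 7402 bp. Of the other lists, all 4 megakaryocyte markers had such a peak in both conditions (24714 bp and 18921 bp with and without doxycycline), as had 1 of 5 B cell markers (Cd79a). None of the 8 myeloid, 4 T cell and 3 stromal markers had one in either condition. The summed lengths were 1706 bp with doxycycline and 1956 bp without it for the myeloid list, 4759 bp and 2856 bp for the B cell list, 3970 bp and 3003 bp for the T cell list, and 0 bp and 653 bp for the stromal list. The part of cell makeup in the values below was not tested.

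With doxycycline, H3K27ac covered most of the body of Nprl3 and lay beside the adult alpha-globin genes, which had none without it, while Rhbdf1 and Mpg differed little. Over the whole stretch, H3K27ac peaks covered 40712 bp with doxycycline and 10136 bp without it, a ratio of 4.02. H3K4me1 peaks covered 67662 bp with doxycycline and 38574 bp without it, a ratio of 1.75. Over all assembled chromosomes the same ratios were 0.993 for H3K27ac and 1.06 for H3K4me1. The lists as a whole thus covered nearly equal lengths in the 2 conditions. The lists with doxycycline did so with fewer and wider peaks. Median widths over all chromosomes were 1353 bp with doxycycline and 1003 bp without it in H3K27ac, and 1153 bp and 903 bp in H3K4me1.

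**Figure D1:**
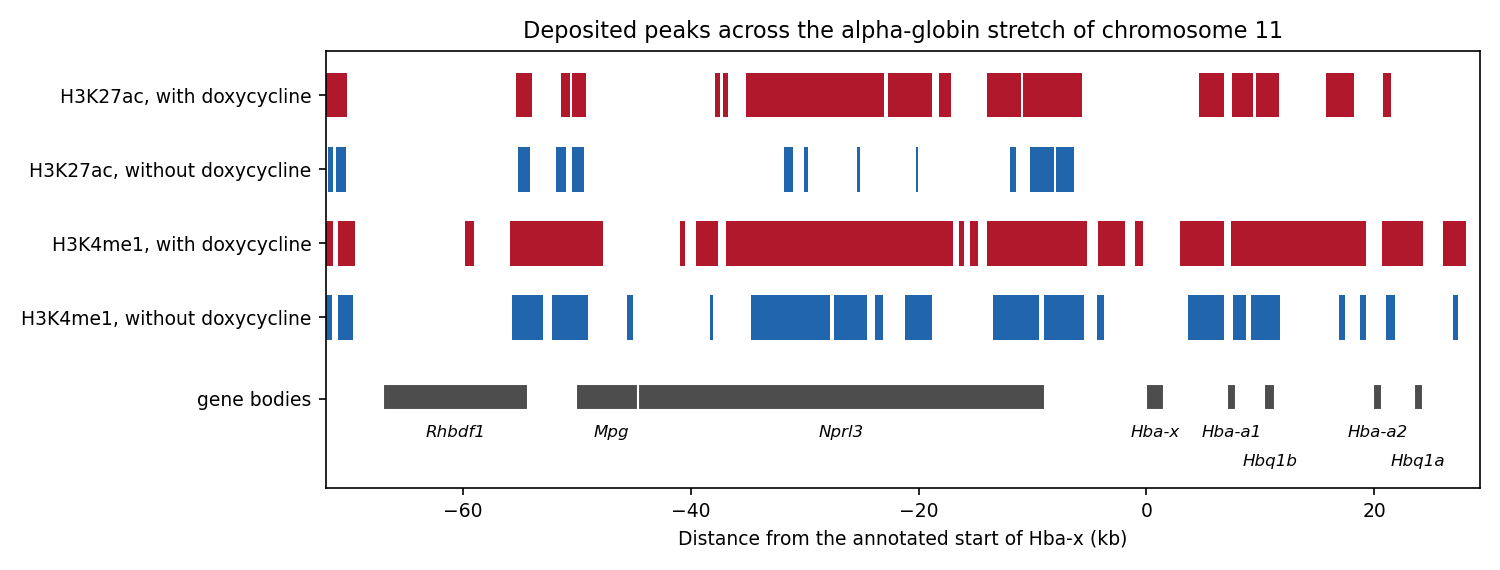
Deposited peaks across the alpha-globin stretch (boxes, to scale), with and without doxycycline, against the distance in kb from the annotated start of Hba-x, with gene bodies in the lowest row. The H3K27ac row with doxycycline fills most of the Nprl3 body and holds 5 peaks right of Hba-x, where the row without doxycycline has none.

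The body of Nprl3, which encodes a subunit of the GATOR1 complex that restrains mTORC1, held most of the H3K27ac difference. H3K27ac covered 22977 bp of its 35745 bp (64.3%) with doxycycline and 3524 bp (9.86%) without it. This segment made up 63.6% of the difference over the whole stretch, and the 24274 bp from Hba-x to Hbq1a another 30.3%. From Hba-x to Hbq1a, H3K27ac covered 9265 bp (38.2%) with doxycycline and 0 bp without it.

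**Figure D2:**
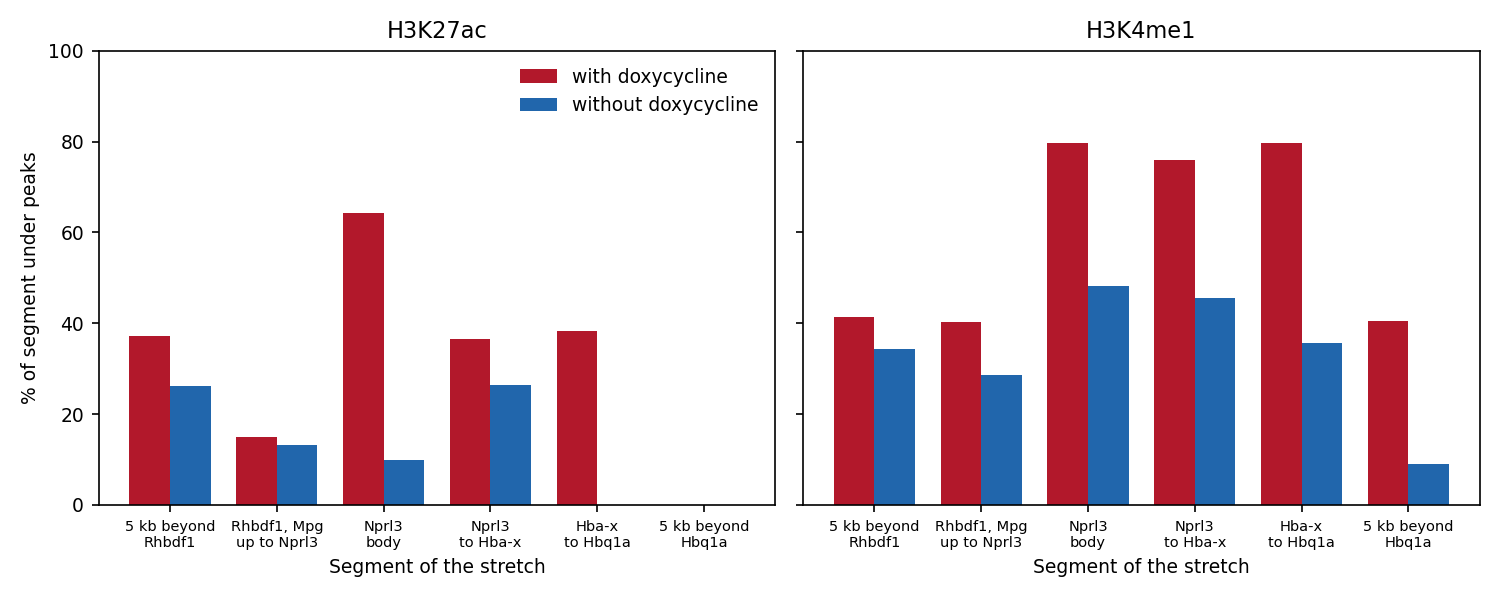
Percent of each segment of the stretch under H3K27ac (left) and H3K4me1 (right) peaks, with and without doxycycline, 1 list per bar. The Nprl3 body has 64.3% and 9.86% of its bp under H3K27ac with and without doxycycline, and the segment from Hba-x to Hbq1a 38.2% and 0%.

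Without doxycycline, sites in and beside Nprl3 were already acetylated, as a row of separate peaks. Those at -9.2 and -7.1 kb were wider than the 1003 bp median of that list, and the others narrower. Their centres lay at -31.4, -29.9, -25.3, -20.1, -11.7, -9.2 and -7.1 kb from the start of Hba-x, a negative distance being on the Nprl3 side. The peaks at -25.3, -20.1, -11.7 and -7.1 kb lay near the distances in the names HS-26, HS-21, HS-12 and HS-8, and no file assigns those names to peaks. The narrowest was the peak at -20.1 kb, of 153 bp, and the widest the peak at -9.2 kb, of 2103 bp, which spans the start of Nprl3.

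With doxycycline each of these peaks lay inside a wider one. How often this was so over all chromosomes was not counted, and peaks with doxycycline were wider there too. The peaks at -31.4, -29.9 and -25.3 kb, of 853, 353 and 303 bp, lay within a single peak of 12153 bp (chr11:32241449-32253601). That peak was number 38 by width of all 23341 H3K27ac peaks with doxycycline, within the widest 0.163%. The peak at -20.1 kb lay within one of 3903 bp with doxycycline, against its 153 bp without it. The peak at -11.7 kb lay within one of 2953 bp with doxycycline, against 553 bp without it. Those at -9.2 and -7.1 kb lay within one of 5153 bp with doxycycline, against 2103 and 1553 bp without it. A further 3 peaks inside Nprl3, at -37.7, -37.0 and -17.7 kb and 453 to 1103 bp wide, had no counterpart without doxycycline.

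The globin genes themselves had no H3K27ac peak without doxycycline. With it there were 5. The first ended just before Hba-a1 (2203 bp, chr11:32281199-32283401), and the next covered the later part of that gene and the bases after it (1903 bp, chr11:32284099-32286001). A peak of 2003 bp (chr11:32286249-32288251) covered the whole of Hbq1b. The remaining peaks lay before Hba-a2 (2403 bp, chr11:32292399-32294801) and after it (753 bp, chr11:32297349-32298101). Hba-x, the embryonic gene, had no H3K27ac over its body in either condition, and the nearest peak stood 4599 bp from its start with doxycycline and 6349 bp without it.

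Of the 16 H3K27ac peaks with doxycycline, 8 had no overlap in the list without it, 3 in Nprl3 and 5 among the globin genes. Over all chromosomes 17.1% of the peaks with doxycycline had none. With peaks less than 1 kb apart joined, 4 of 9 had none, and the share over all chromosomes was not counted for joined peaks. In the other direction, 0 of the 12 peaks without doxycycline lacked an overlap with doxycycline, where 27.4% of all such peaks did.

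The starts of the adult alpha genes were not under these peaks, and their sequences show how alike the copies are. The 250 bases before each annotated start are given for the pair of adult genes, for the embryonic gene and for Nprl3, which was acetylated in both conditions. Sequences come from RefSeq (GRCm38.p6) and run along each gene's own strand. Capitals mark motif matches on either strand. The motif of GATA factors was searched as AGATAA or TGATAA. That of KLF factors was searched as CCNCNCCC. The CCAAT box was searched as those letters. The TATA box was searched as TATAAA or as its variant CATAAA. The core of the NFE2 motif was searched as TGANTCA.
Hba-a1 (chr11:32283422-32283671, plus strand): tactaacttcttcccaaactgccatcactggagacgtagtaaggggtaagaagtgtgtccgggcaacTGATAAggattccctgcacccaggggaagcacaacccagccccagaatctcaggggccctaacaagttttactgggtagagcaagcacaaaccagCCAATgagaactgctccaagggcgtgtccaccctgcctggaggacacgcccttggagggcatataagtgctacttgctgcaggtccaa
Hba-a2 (chr11:32296242-32296491, plus strand): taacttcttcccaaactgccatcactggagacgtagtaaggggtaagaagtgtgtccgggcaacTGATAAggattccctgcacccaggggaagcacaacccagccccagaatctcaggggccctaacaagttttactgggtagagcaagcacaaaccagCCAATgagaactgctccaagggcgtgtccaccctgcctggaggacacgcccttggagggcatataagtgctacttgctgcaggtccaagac
Hba-x (chr11:32276350-32276599, plus strand): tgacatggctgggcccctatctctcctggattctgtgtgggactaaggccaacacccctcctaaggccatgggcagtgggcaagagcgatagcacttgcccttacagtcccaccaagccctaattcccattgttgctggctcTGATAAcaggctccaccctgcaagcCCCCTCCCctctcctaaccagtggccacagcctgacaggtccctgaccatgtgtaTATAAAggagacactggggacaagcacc
Nprl3 (chr11:32267708-32267957, minus strand): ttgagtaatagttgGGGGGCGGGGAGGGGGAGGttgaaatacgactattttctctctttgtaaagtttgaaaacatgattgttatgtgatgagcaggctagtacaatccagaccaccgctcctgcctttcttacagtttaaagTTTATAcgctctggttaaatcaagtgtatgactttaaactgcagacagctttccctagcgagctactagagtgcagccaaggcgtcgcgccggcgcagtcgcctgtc
The Hba-a1 and Hba-a2 sequences were identical at 247 of 247 bases once shifted by 3 bases, whereas Hba-a1 and Hba-x matched at 74 of 240. The theta-like pair Hbq1b and Hbq1a matched at 239 of 250 bases.

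With doxycycline, H3K27ac covered 0 of the 250 bases before Hba-a1 and 0 of those before Hba-a2, and the nearest H3K27ac peak stood 271 bp and 857 bp from their starts. Without doxycycline the nearest one stood 13421 bp and 26241 bp away. The gap around the start of Hba-a1 was 697 bp in H3K27ac and 597 bp in H3K4me1 with doxycycline, and that of H3K4me1 without doxycycline was 747 bp. Around Hba-a2 the gap with doxycycline was 2547 bp in H3K27ac and 1397 bp in H3K4me1. Both H3K27ac gaps contain the 250 bases shown above, which the copies share. How reads that map to both copies were handled is not given in the sources used here, and the part of this in the gaps was not tested. For the same reason, the values of Hba-a1 and Hba-a2 may share reads. The 250 bases before Hbq1b were covered in full by H3K27ac with doxycycline and by 0 bp without it. Those before Nprl3 and Mpg were covered in full in both conditions.

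A GATA match stood before 3 of the 7 members with a promoter in the table, Hba-x, Hba-a1 and Hba-a2, at -108, -183 and -186 bases from the start (first base of the match). Of all 32851 promoters of that length, 16.6% held one. CCAAT stood before 5 of the 7 and in 33.8% of all promoters, and CCNCNCCC before 3 (Mpg, Nprl3 and Hba-x) and in 45.9%. Matches to CCNCNCCC before Nprl3 overlap each other. The letters searched for a TATA box matched before Hba-x at -28 bases, and in 20.9% of all promoters. They also matched before Nprl3 at -107 bases, as TTTATA on the other strand. The Hba-a1 and Hba-a2 sequences hold the letters catataag near the start, which the search does not match. The lack of a match there thus does not show that these genes lack a TATA box. The letters TGANTCA were in none of the 7 windows and in 6.75% of all promoters. GGAA, the core of the motif of SPI1 and other ETS factors, was in all 7 and in 93.4% of all promoters.

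For each member the covered length was summed over its body with 5 kb either side, a window in which neighbours share peaks. A gene was counted as longer where one list covered at least 1.5 times the length of the other and at least 200 bp. In H3K27ac, 6 of 8 members were longer with doxycycline, 0 shorter and 2 neither, where 11.4% of the 12314 genes with any H3K27ac were longer and 13.2% shorter. Nprl3 had 26660 bp with doxycycline and 6110 bp without it. That difference was the third of 12314 in size, and long genes have long windows. Hba-a1 had 6109 bp with doxycycline and 0 bp without it, and Hbq1b next to it 5858 bp and 0 bp. These differences were exceeded by 0.690% and 0.763% of genes. Hba-a2 had 3156 bp, Hba-x 1918 bp and Hbq1a 753 bp with doxycycline, and each 0 bp without it. The length of Hba-x comes from the peak beside Hba-a1, and that of Hbq1a from the peak after Hba-a2. With windows of 2 kb, 4 members were longer and neither Hba-x nor Hbq1a was among them. The share of all genes was not counted for windows of 2 kb. Within 1 kb of an annotated end, 3 members, Hba-a1, Hbq1b and Hba-a2, had H3K27ac with doxycycline alone, as had 2.04% of the 10393 genes with such a peak. None had it without doxycycline alone, where 3.52% of genes did.

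**Figure D3:**
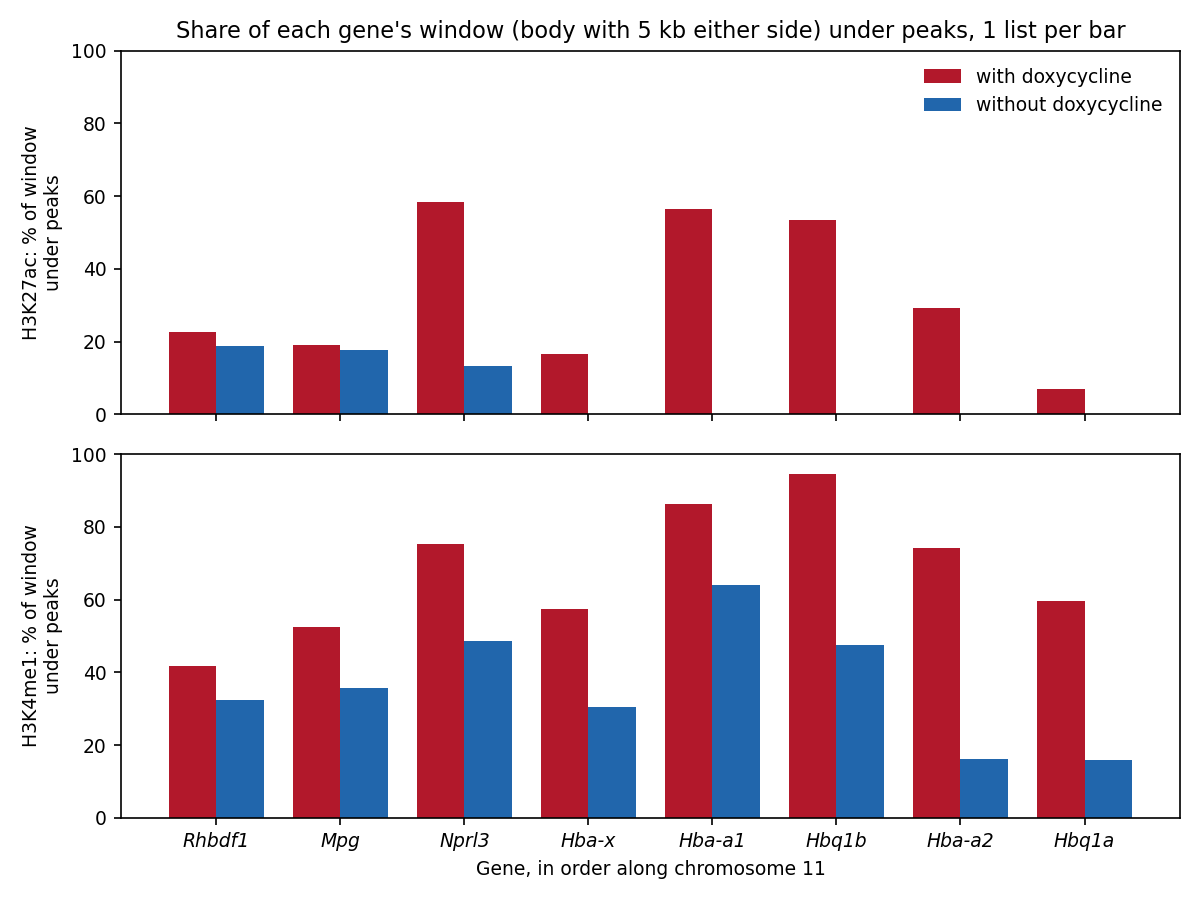
Percent of each gene's window (body with 5 kb either side) under H3K27ac (upper) and H3K4me1 (lower) peaks, with and without doxycycline, 1 list per bar, genes in chromosome order. The 5 globin genes have no H3K27ac bar without doxycycline, while Rhbdf1 and Mpg have bars of similar height in both conditions.

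On the far side of the enhancers, the members Rhbdf1 and Mpg were under 1.5 times longer in H3K27ac, while their neighbours Snrnp25 and Il9r, which lie in or reach into the outer end of the stretch, were over it. Rhbdf1, an inactive rhomboid protein that guides the maturation of the protease ADAM17, had 5156 bp with doxycycline and 4265 bp without it. Mpg, a DNA glycosylase of base excision repair, had 3103 bp with doxycycline and 2853 bp without it. Each had a peak over an annotated end in both conditions, of 1403 bp with doxycycline and 1053 bp without it at Rhbdf1, and of 1203 bp and 1053 bp at Mpg. Beyond them, Snrnp25, a protein of the minor spliceosome, had 2003 bp with doxycycline and 1306 bp without it, and Il9r, the interleukin-9 receptor, 3459 bp and 1306 bp. On the other side of the stretch Sh3pxd2b had 0 bp of H3K27ac in both conditions, Ubtd2 1203 bp with doxycycline and 1506 bp without it, and Efcab9 1503 bp and 1903 bp.

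**Figure D4:**
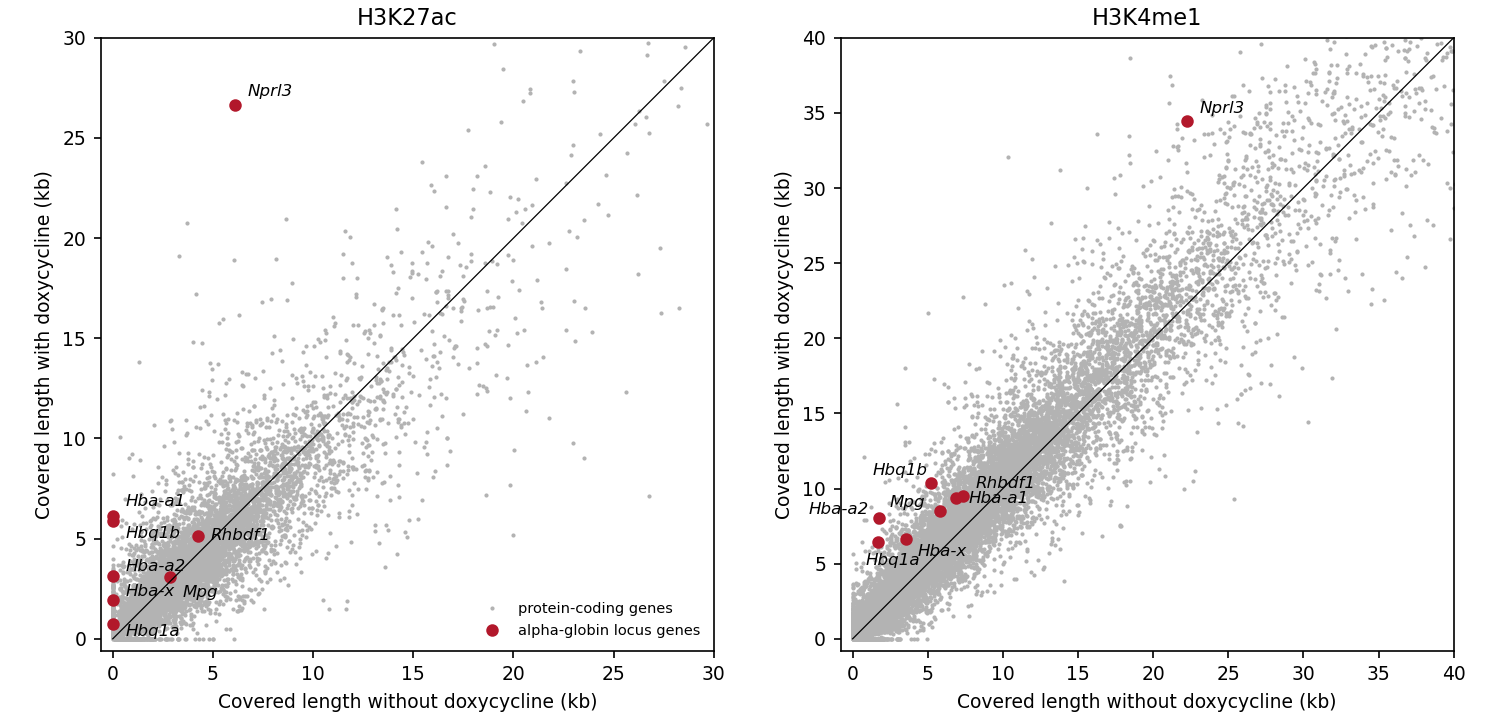
Covered length with doxycycline (vertical axis, kb) against that without it (horizontal axis, kb) over the window of each protein-coding gene with any peak (grey) and of the 8 alpha-globin locus genes (red), with the line of equal length. The axes end at 30 kb for H3K27ac and 40 kb for H3K4me1, which leaves out 34 and 630 genes, and Nprl3 stands at 26660 bp with doxycycline and 6110 bp without it in H3K27ac.

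H3K4me1 differed in the same direction but, unlike H3K27ac, was present among the globin genes without doxycycline too. Without doxycycline it covered 35.3% of the body of Hba-a1 and 100% of that of Hbq1b. The bodies of Hba-x, Hba-a2 and Hbq1a had 0 bp. Across the Nprl3 body it covered 79.7% with doxycycline and 48.3% without it, and from Hba-x to Hbq1a 79.6% and 35.7%. Inside Nprl3, 4 peaks of 703 to 6953 bp without doxycycline lay within a single peak of 19903 bp with it (chr11:32239699-32259601). By the authors' score that peak was number 155 of its list, within the top 0.153%. At the globin genes a peak of 11853 bp with doxycycline (chr11:32284049-32295901) ran from the body of Hba-a1 over Hbq1b to 591 bp before the start of Hba-a2. Without doxycycline 4 peaks of 453 to 2553 bp stood there.

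Over the members' windows, 5 of 8 were longer in H3K4me1 with doxycycline, 0 shorter and 3 neither, where 12.0% of the 16363 genes with any H3K4me1 were longer and 9.04% shorter. Hba-a2 had 8013 bp with doxycycline and 1759 bp without it, a ratio of 4.56. Hbq1a, the gene farthest from the enhancers, had 6439 bp and 1709 bp, a ratio of 3.77. These were the members with least H3K4me1 without doxycycline. Hbq1b had 10352 bp with doxycycline and 5194 bp without it, Hba-x 6624 bp and 3521 bp, and Nprl3 34466 bp and 22272 bp. Nprl3 was not among the longer ones when lengths with doxycycline were scaled to the same total. Hba-a1 had 9341 bp and 6909 bp, Rhbdf1 9506 bp and 7356 bp, and Mpg 8504 bp and 5803 bp, all under 1.5 times. At 2 times, the 2 members Hba-a2 and Hbq1a were longer. The share of all genes was not counted at that ratio or for scaled lengths. Within 1 kb of an annotated end, the 2 members Hba-x and Hbq1a had H3K4me1 with doxycycline alone, as had 3.17% of the 13679 genes with such a peak. None had it without doxycycline alone, where 3.93% of genes did.

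Of the 16 H3K4me1 peaks with doxycycline, 5 had no overlap without it, where 20.8% of all such peaks had none. With peaks less than 1 kb apart joined, 1 of 7 had none. Where an overlap had to span 50% of both peaks, 14 H3K4me1 peaks and 13 H3K27ac peaks of 16 each counted as found with doxycycline alone. No share over all chromosomes was counted for joined peaks or for this overlap, so these counts have no like value beside them. The 5 peaks were 403 to 803 bp wide, 3 of them in Nprl3, 1 in Rhbdf1 and 1 before Hba-x. The peak before Hba-x, centred at -0.7 kb, ended 299 bp before that gene. Of the 20 peaks without doxycycline, 1, of 553 bp in Mpg, had no overlap with doxycycline, where 26.7% of all such peaks had none.

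Each of the H3K27ac peaks overlapped H3K4me1 of its own condition, 16 of 16 with doxycycline and 12 of 12 without it. How many of all H3K27ac peaks do so was not counted, so this is not read as a trait of the locus. Under H3K4me1 with doxycycline lay 97.6% of the bp of the stretch acetylated with doxycycline alone. Over all assembled chromosomes that share was 96.9%. Of the 31026 bp of the stretch under H3K27ac with doxycycline alone, 72.3% already lay under H3K4me1 without doxycycline. The exact Clopper-Pearson 95% interval was 71.8 to 72.8%. It treats bases as independent, though they lie in runs under peaks, so it is too narrow and holds no spread between replicates. A further 25.3% of the 31026 bp lay under H3K4me1 with doxycycline only, and 2.41% under neither. Over all assembled chromosomes these shares were 91.8%, 5.43% and 2.81%. All 5 H3K27ac peaks that the globin genes had with doxycycline alone overlapped H3K4me1 of the list without doxycycline, in full for the peak before Hba-a1 and the one over Hbq1b, and over 503 of 2403 bp for the one before Hba-a2. The 3 peaks in Nprl3 with doxycycline alone each had 0 bp of H3K4me1 without it. Just 450 bp of the stretch were under H3K27ac without doxycycline alone.

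**Figure D5:**
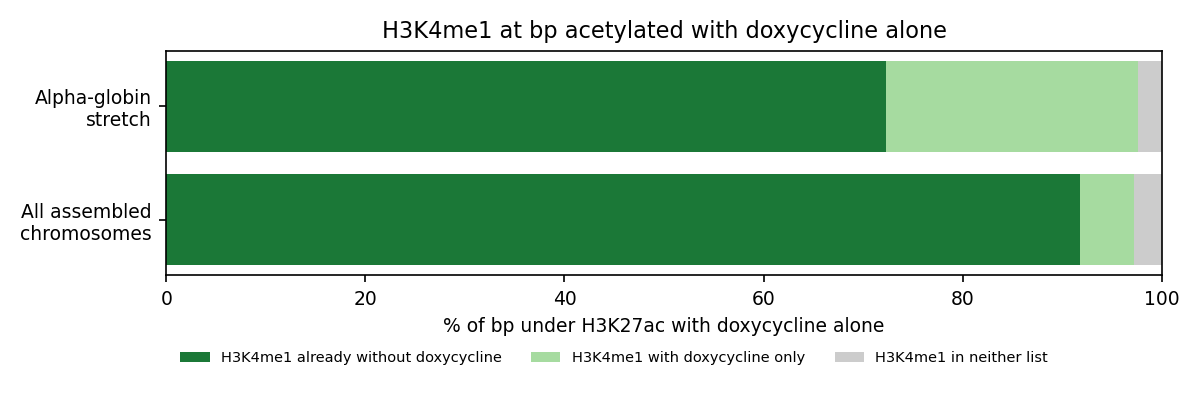
H3K4me1 state of the bp under H3K27ac with doxycycline alone, as a percent of those bp, for the alpha-globin stretch (upper bar) and all assembled chromosomes (lower bar). H3K4me1 was there without doxycycline at 72.3% of such bp in the stretch and 91.8% over all chromosomes.

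To set the size of the difference beside the rest of the genome, all chromosomes were tiled in windows of the same 101289 bp. None of the 8171 other tiles with any H3K27ac (0%) had a difference of 30576 bp or more. The highest was 21059 bp, the 99th percentile 6980 bp and the median -50 bp. In H3K4me1, 5 of 15710 tiles (0.0318%) had a difference of at least the 29088 bp of the stretch, with a median of 300 bp. The stretch was drawn around its genes and the tiles were not, so this is a description of rank.

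Other genes of haemoglobin production and genes of factors that act at the locus were set beside it. Of 11 matched production genes, 4 were longer in H3K27ac with doxycycline, 0 shorter and 7 neither. Of all genes with any H3K27ac, 11.4% were longer and 13.2% shorter. The median difference was 347 bp in the list, against -7 bp over all those genes. Alas2, the erythroid enzyme that opens haem synthesis, had 7215 bp with doxycycline and 1406 bp without it. Hbb-bs, an adult beta-globin gene, had 4612 bp and 1406 bp, and its neighbour Hbb-bt 8181 bp and 8081 bp. The embryonic beta-like gene Hbb-y had 4112 bp and 1459 bp, and Eif2ak1, the haem-regulated eIF2alpha kinase, 4356 bp and 2506 bp. In H3K4me1, 2 of the 11 were longer (Alas2 and Eif2ak1), 0 shorter and 9 neither, where 12.0% of all genes were longer and 9.04% shorter. The median H3K4me1 difference was 1447 bp, against 391 bp over all genes. At the beta-globin genes, unlike at the alpha-globin genes, the list without doxycycline already held H3K27ac, with 1403 bp at Hbb-bh1 and Hbb-bh2 at the least. Both of these had less H3K27ac with doxycycline, 1003 bp each. They were the 2 of the 11 with less, and 9 had more. How many of all genes had more or less was not counted.

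Of the 14 factor genes, 0 were longer, 0 shorter and 14 neither in H3K27ac, with a median difference of -150 bp, and likewise in H3K4me1, with a median of 1408 bp. Over all genes, 11.4% were longer and 13.2% shorter in H3K27ac, and 12.0% and 9.04% in H3K4me1. In a list this short, 0 of 14 is not read as a trait of these genes. Gata1, the main erythroid GATA factor, had 10315 bp of H3K27ac with doxycycline and 12012 bp without it. Klf1, the erythroid Kruppel-like factor, had 7349 bp and 7402 bp. Tal1, a partner of GATA1 at enhancers, had 9603 bp and 9856 bp, and Nfe2, a factor of globin enhancers, 11193 bp and 12749 bp. These named genes all had less H3K27ac with doxycycline, as had 9 of the 14, each by under 1.5 times. The other 5 of the 14 had more, among them Zfpm1, with 51373 bp and 48932 bp, and Cbfa2t3, with 22065 bp and 19827 bp. How many of all genes had less was not counted. The median difference over all genes was -7 bp, so these signs are not read as a direction.

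The genes outside the stretch with values nearest to those of Hba-a1 were found by the Euclidean distance over 4 values, the percent of the window covered in each list. They were Ackr1, Eral1, Msantd1, Nacad and Hbb-bs, at distances of 18.7 to 24.1 percentage points. Hba-a1 itself had 56.5% under H3K27ac with doxycycline and 0% without it, and 86.4% and 63.9% under H3K4me1. Ackr1, the Duffy antigen receptor of red cells, had 48.7% and 11.6% under H3K27ac, and 95.3% and 72.5% under H3K4me1. Each of the 5 had some H3K27ac without doxycycline, from 8.79% at Nacad to 19.9% at Msantd1, while Hba-a1 had none.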

How the data were processed

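Of the 24 samples in the series (ChIP and input), grouped here by title, the 4 deposited peak lists for H3K27ac and H3K4me1 with and without doxycycline were used. The other samples were not analysed here. The tools used by the authors included BWA and bcl2fastq (2.17.1.14), on build mm10, per the submitters' processing notes. Not given in the sources used here are the peak caller and its thresholds, how H3K27ac replicates were combined, and how multiply mapped reads were treated. The H3K27ac lists hold positions and widths. The H3K4me1 lists also hold a score by the authors, of unstated scale, which served only to rank peaks of that list. The lists hold no read counts, so depth is unknown, and deeper sequencing can by itself widen or add peaks. Positions were taken to count from 1, with the last base included.

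Covered lengths and overlaps of at least 1 bp, on 21 assembled chromosomes, came from scripts tested on simulated data. These ran under Python 3.11.15 with pandas 2.3.3, scipy 1.17.1, matplotlib 3.10.9 and numpy 2.4.6. Genes and promoters came from RefSeq tables on GRCm38.p6, which is the assembly behind mm10. The gene table has no exons, so peaks were not assigned to introns. Promoters were found for 7 of 8 members, all but Rhbdf1, and Ahsp had no match in the gene table. The genes that could be named were the 8 members, the 3 genes on either side, the listed genes and the 5 nearest to Hba-a1, and examples from the lists were chosen after their values were seen. Members and lists were chosen with earlier results of these data known. With 1 list per mark and condition no test was possible.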

Additional observations from a re-analysis of the deposited data

How the results depend on the processing

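No paired analysis was possible because each mark and condition has 1 list. No replicate could be left out for the same reason. Of 51 alternatives, 41 left their result within 1.5 times (for the share of bp, within its 95% interval), 10 moved it and 0 reversed it. That interval takes neighbouring bases as independent, so it is too narrow to judge the share, whose 4 values outside it lay within 1.5 times. The H3K27ac difference of the stretch ran from 21311 bp, without the windows of Hba-a1 and Hba-a2, to 32168 bp, with 20 kb beyond the outer genes, and that of H3K4me1 from 20402 to 36181 bp under the same settings. Members longer in H3K27ac numbered 4 to 8, and 8 with windows of 20 kb. In H3K4me1 they numbered 2 at 2 times as long and 8 at the lowest ratio tried. The share of all genes was counted only at 1.5 times with windows of 5 kb, so the other counts have no like value beside them. Peaks found with doxycycline alone numbered 4 in H3K27ac and 1 in H3K4me1 with peaks within 1 kb merged, and 13 and 14 under a reciprocal overlap of 50%. Shares over all chromosomes were not counted under either rule. The share of bp under H3K27ac with doxycycline alone that had H3K4me1 without it was 73.4% with the wider or higher-scored 50% of each list, 73.0% with equal peak numbers, 74.7% with peaks merged and 81.0% within 200 bp of a peak. Depth is unknown, and peak width moves with it.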

Other observations

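H3K4me1 with doxycycline also ran past the end of the alpha-globin stretch, where no H3K27ac was found in either condition. From there to 40 kb past Hbq1a, 8 H3K4me1 peaks covered 6474 bp with doxycycline, and 2 peaks covered 1156 bp without it. The peaks with doxycycline lay between chr11:32306549 and 32325301, short of Sh3pxd2b, the next protein-coding gene. Over the window of Sh3pxd2b itself H3K4me1 covered 853 bp with doxycycline and 1459 bp without it.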
